A study of Drosophila melanogaster with 9 samples.

Results

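RNA levels of the zinc finger transcription factor genes sug (sugarbabe, FBgn0033782) and cbt (cabut, FBgn0043364) were examined in the larval fat body of Drosophila melanogaster. The genes were taken by their symbols, and these are 2 of the 10372 genes of the deposited table. The fat body is the insect organ that combines functions of liver and adipose tissue. Both were tested in all 3 comparisons of the study.

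There were 9 libraries, 3 in each of 3 groups, all from the fat bodies of female larvae that were feeding in the middle of the third instar. In every cross the mothers were virgin hs-GAL4 females, which carry the yeast activator GAL4 under a heat shock promoter that is not restricted to the fat body. InRCA_HS larvae had fathers of stock 8263, which carries UAS-InR.A1325D, a constitutively active insulin receptor, and they were heated at 37 °C for 30 min and left to recover for 6 h. InRCA_noHS larvae had the same parents, stayed at 25 °C and changed vials without being heated. The control_HS larvae had fathers of stock 6598 (y1w1118), carried no UAS-InR transgene and received the same heat. Heat with the induced receptor thus separates InRCA_HS from InRCA_noHS, and the transgene, with its paternal stock, separates InRCA_HS from control_HS. Between InRCA_noHS and control_HS both the heat and the paternal stock with its transgene differed, and their effects cannot be told apart. An unheated control cross was not analysed here. Food was not varied, so the response of either gene to sugar could not be examined. Whether a group's libraries derive from separate cultures is not stated in the labels, and the p-values describe the spread among these libraries, which may be technical.

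InR served as the check of the labels. It averaged 58288 ± 9633 adjusted counts in InRCA_HS, 2537 ± 986 in InRCA_noHS and 785 ± 41.8 in control_HS (SD, n = 3 each), and it passed the test in each comparison. InR RNA was thus also higher in the unheated InRCA_noHS fat bodies than in control_HS. An adjusted count is a read count that the authors adjusted for differences between libraries; its totals still ranged between 10625545 and 15514912 per library. The whole reads recovered from these values summed to between 8762567 and 17601908 per library. The 7 fat body markers, among them the larval serum protein genes, summed to between 2723310 and 4119090 adjusted counts in each library with all 7 detected. Of the 7, 1, Fbp2, was called higher against control_HS in InRCA_HS and in InRCA_noHS (1.11% and 3.25% of all genes). In a principal component analysis the leading component (33.3% of variance) placed the library of control_HS replicate 2 at one extreme, at 55.6, and those of InRCA_noHS at the other, between -34.1 and -27.3. Counting intervals below are exact 95% Poisson intervals on the recovered reads and cover counting error only.

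Dietary sugar is sensed in Drosophila by the paired factors Mondo and Mlx (bigmax), relatives of mammalian ChREBP and its partner, which switch on a set of further transcription factors. Sugarbabe, a Gli-similar zinc finger protein, is one of these targets, and it is known to promote expression of fatty acid synthesis genes and to lower that of digestive enzymes. Cabut, the fly relative of mammalian KLF10, is another target and is known to repress the gluconeogenic gene Pepck. The activin ligand Dawdle (daw) is a further regulator of the fly's sugar responses. Insulin signalling, which the transgene activates, also controls lipid synthesis in the fat body.

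In the Ensembl 115 annotation on assembly BDGP6, a later build than the dm3 named in the submitters' processing notes, sug lies on the plus strand of chromosome arm 2R and spans 6078 bases with 2 transcripts. Its merged exons cover 1572 bases, of which 98 are shared with CG13319 on the same strand, so that reads from this stretch cannot be assigned to one gene. CG13319 averaged 138 ± 36.7 adjusted counts in InRCA_HS, 107 ± 11.1 in InRCA_noHS and 145 ± 22.6 in control_HS (SD, n = 3 each). The cbt gene lies on the minus strand of arm 2L, spans 3243 bases with 3 transcripts, and its merged exons cover the whole span. It lies within the opposite-strand gene ush, with which it shares no exon bases. Whether the counting used strand is not given in the sources used here. Unspliced ush RNA could then add to cbt, and this was not tested. The ush gene averaged 402 ± 50.2, 417 ± 61.5 and 394 ± 31.2 adjusted counts in InRCA_HS, InRCA_noHS and control_HS (SD, n = 3 each).

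The sug RNA level was lowest in the unheated fat bodies and varied most among the libraries of the heated groups. In InRCA_HS the adjusted counts of sug were 106, 159 and 242. In InRCA_noHS they were 64.0, 79.1 and 76.2. In control_HS they were 166, 556 and 171, so that a single library, replicate 2, stood far above the other two. The 3 InRCA_noHS values lay below the 3 of control_HS, as for 10.4% of all genes. They also lay below the 3 of InRCA_HS, as for 7.52% of all genes. The heated groups overlapped each other. The recovered reads of sug ranged between 40 (interval 28.6 to 54.5) in InRCA_noHS replicate 1 and 480 (interval 438 to 525) in control_HS replicate 2. The group means were 169 ± 68.5 in InRCA_HS, 73.1 ± 8.04 in InRCA_noHS and 298 ± 224 in control_HS (SD, n = 3 each).

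**Figure D1:**
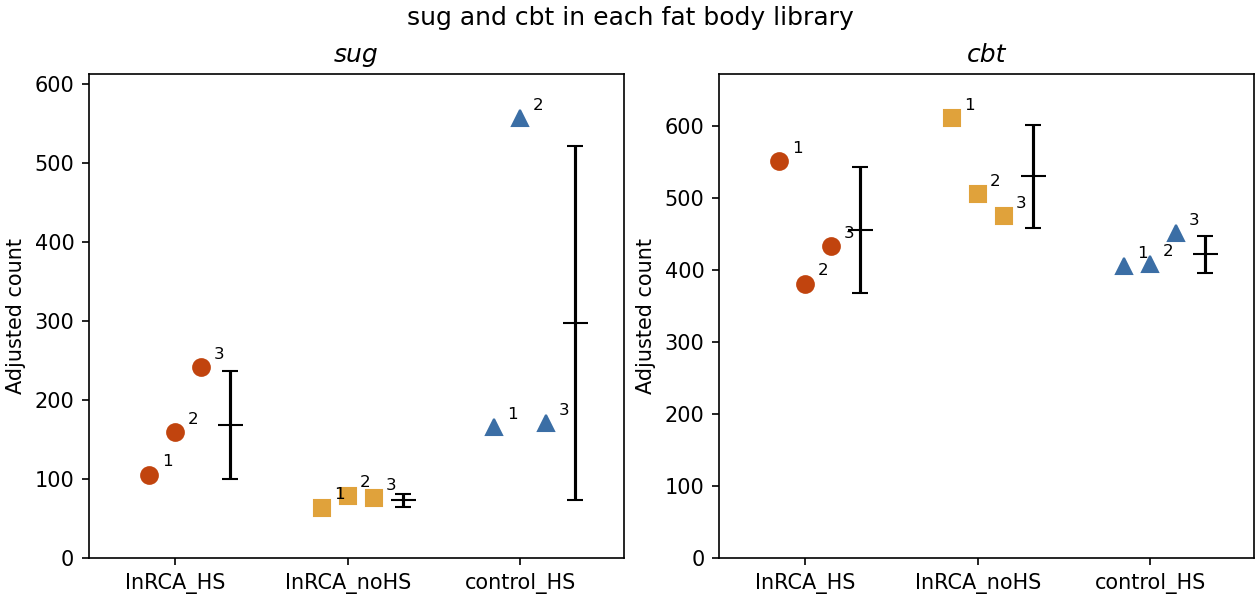
Adjusted counts of sug (left) and cbt (right) in each library of InRCA_HS, InRCA_noHS and control_HS. Points are libraries numbered by replicate, and the bars beside them are the mean and SD of 3 libraries. The InRCA_noHS libraries hold the lowest sug values, between 64.0 and 79.1, while the cbt values of the 3 groups lie between 380 and 610.

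In InRCA_noHS against control_HS, sug fell by 1.77 on the log2 scale (SE 0.44, 95% interval -2.74 to -0.80, adjusted p = 0.0369 by limma), which is 3.41-fold lower with an interval of 1.75 to 6.67. All folds here are on the scale of log2(adjusted count + 1). The same test called 337 genes higher (3.25%) and 392 lower (3.78%) of all genes, and 2.61% of genes had a larger absolute difference than sug. With another scaling (TMM) the split was 220 higher and 541 lower, and the median of all genes was 0.00 in place of 0.12 on the log2 scale. The sug difference was then -1.89. The 3 InRCA_noHS libraries lay below the 3 control_HS libraries for sug, as they did for 10.4% of all genes. The call for sug depended on single libraries. Without control_HS replicate 2 the difference was -1.20 with an adjusted p of 0.0877. Without InRCA_noHS replicate 1, 2 or 3 the adjusted p was 0.103, 0.0986 or 0.101, with differences of -1.68, -1.83 and -1.80. Calls over the whole table also became fewer in these fits. They went from 729 to 267 without control_HS replicate 2, and to 421, 275 and 275 without InRCA_noHS replicate 1, 2 and 3.

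In InRCA_HS against InRCA_noHS, the comparison of the same genotype with and without heat and the receptor it induces, the sug difference was 1.12 on the log2 scale (SE 0.44, interval 0.16 to 2.09). Its unadjusted p was 0.0268 and its adjusted p 0.259 by limma, so sug did not pass the threshold. The fold was 2.18, with an interval of 1.11 to 4.25. All 3 InRCA_HS values of sug lay above the 3 InRCA_noHS values, which was also the case for 7.52% of all genes. The test called 182 genes higher (1.75%) and 83 lower (0.8%), against 238 higher and 59 lower with the other scaling, and 4.56% of genes had a larger absolute difference than sug. Of the 9 fits without a library, 0 called sug, with differences of 0.82 to 1.42 and adjusted p of 0.0691 to 0.465 by limma. The lowest adjusted p was without control_HS replicate 2, which is in neither group but enters the spread that the fit shares.

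In InRCA_HS against control_HS, where both groups were heated, the sug difference was -0.65 (SE 0.44, interval -1.62 to 0.32, adjusted p = 0.483 by limma) and the values overlapped. Without control_HS replicate 2 the value was -0.075 with an adjusted p of 0.954. Across all genes the test called 115 higher (1.11%) and 137 lower (1.32%).

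The cbt RNA level lay between 380 and 610 adjusted counts in all 9 libraries. The values were 551, 380 and 433 in InRCA_HS, 610, 505 and 474 in InRCA_noHS, and 405, 408 and 450 in control_HS. The InRCA_HS values spanned those of control_HS and overlapped those of InRCA_noHS. The means were 455 ± 87.3 in InRCA_HS, 530 ± 71.3 in InRCA_noHS and 421 ± 25.4 in control_HS (SD, n = 3 each). The recovered reads of cbt ranged between 277 (interval 245 to 312) in control_HS replicate 3 and 659 (interval 610 to 711) in InRCA_HS replicate 1.

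No comparison passed the test for cbt. In InRCA_noHS against control_HS the difference was 0.32 on the log2 scale (SE 0.17, interval -0.06 to 0.71, adjusted p = 0.293 by limma), a fold of 1.25. All 3 InRCA_noHS values lay above the 3 control_HS values, as they did for 17.2% of all genes. Between InRCA_HS and InRCA_noHS the cbt difference was -0.23 (interval -0.61 to 0.15, adjusted p = 0.592). In InRCA_HS against control_HS the cbt difference was 0.09 (interval -0.29 to 0.48, adjusted p = 0.830), and it was -0.052 without InRCA_HS replicate 1. The intervals of cbt were narrower than those of sug, and none reached a change of 1 on the log2 scale in either direction.

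The within-group spread of the 2 genes differed by group. The SD of log2 values of sug was 0.59 in InRCA_HS, 0.16 in InRCA_noHS and 0.99 in control_HS, beside medians over all genes of 0.26, 0.24 and 0.30. In control_HS 96.8% of genes had a smaller SD than sug, against 29.5% in InRCA_noHS and 82.6% in InRCA_HS. For cbt the SD was 0.27 in InRCA_HS, 0.19 in InRCA_noHS and 0.09 in control_HS, where only 6.74% of genes had a smaller one. The control_HS libraries that differed most for sug were thus nearly level for cbt.

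Per kilobase of merged exon, which allows levels of different genes to be set side by side, sug reached 107 ± 43.6 adjusted counts in InRCA_HS, 46.5 ± 5.11 in InRCA_noHS and 189 ± 143 in control_HS (SD, n = 3 each). On that scale sug stood at percentiles 60.8, 37.6 and 74.8 of the 9928 genes with a length. The corresponding level of cbt was 140 ± 26.9 in InRCA_HS, 163 ± 22.0 in InRCA_noHS and 130 ± 7.83 in control_HS, at percentiles 68.0, 70.4 and 66.7. The level of cbt per kilobase divided by that of sug was 2.53, 1.16 and 0.867 in the InRCA_HS libraries, 4.62, 3.09 and 3.02 in the InRCA_noHS libraries, and 1.19, 0.355 and 1.28 in the control_HS libraries. Per kilobase, sug exceeded cbt in InRCA_HS replicate 3 and control_HS replicate 2, and cbt exceeded sug in the other libraries.

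The ratio of sug to cbt within a library does not change where a library is scaled by 1 factor. This ratio was added after the values had been seen. On the log2 scale of adjusted counts it was -2.38, -1.26 and -0.84 in InRCA_HS, -3.25, -2.67 and -2.64 in InRCA_noHS, and -1.29, 0.45 and -1.40 in control_HS. All 3 InRCA_noHS values lay below the 6 values of the heated groups. The difference was -2.11 in InRCA_noHS against control_HS and 1.36 in InRCA_HS against InRCA_noHS, each with p = 0.1 in a two-sided exact permutation test, the smallest p that 3 libraries against 3 allow (0.15 after adjustment over the 3 comparisons). In InRCA_HS against control_HS the difference was -0.75 with p = 0.6 in the exact test, and the values overlapped.

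**Figure D2:**
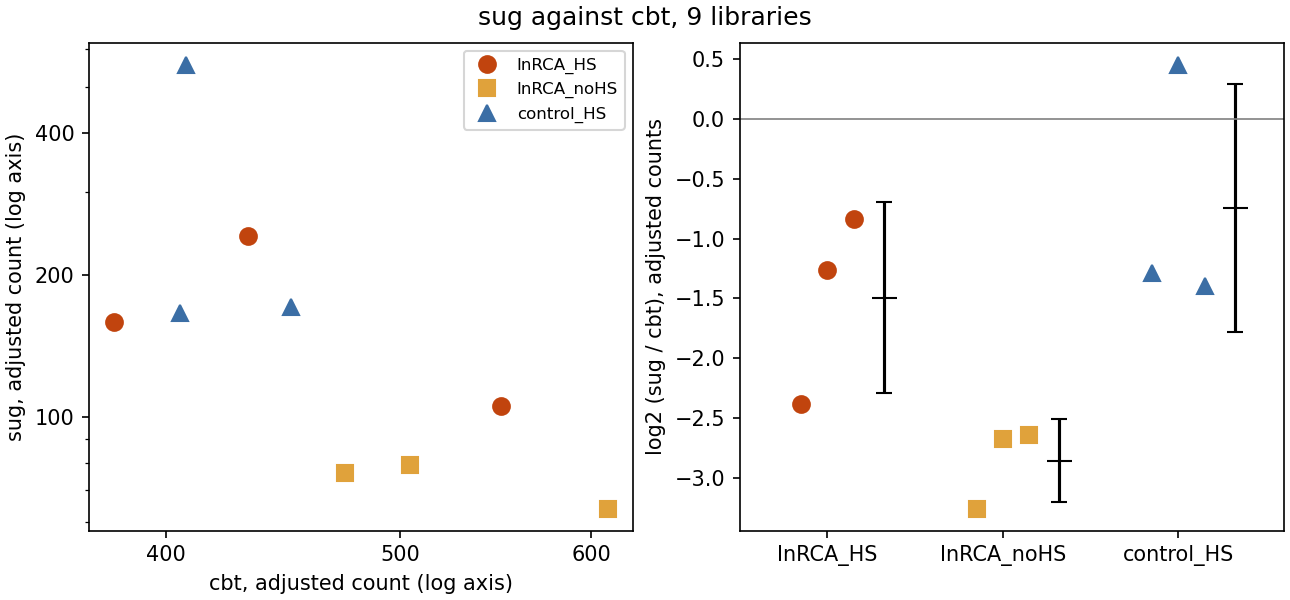
Left, adjusted count of sug against that of cbt in the 9 libraries, both on log axes; right, log2 of sug over cbt in each library with the mean and SD of 3 libraries per group. The InRCA_noHS libraries lie low on the sug axis, and their ratios, between -3.25 and -2.64, lie below those of the heated groups.

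The pair of factors known to act upstream of sug and cbt was measured in every library. Mio, the table's symbol for Mondo, averaged 836 ± 108 adjusted counts in InRCA_HS, 1037 ± 219 in InRCA_noHS and 982 ± 129 in control_HS (SD, n = 3 each). The bigmax gene averaged 244 ± 36.7 in InRCA_HS, 246 ± 24.2 in InRCA_noHS and 315 ± 20.7 in control_HS. Neither passed the test in a comparison: in InRCA_noHS against control_HS, where sug fell, Mio differed by 0.07 (adjusted p = 0.866 by limma), a value whose sign turned under the other scaling (-0.056), and bigmax by -0.36 (adjusted p = 0.218). Of 13 listed regulators of sugar and nutrient responses, 0 were called higher and 1 lower in that comparison (3.25% and 3.78% of all genes). The 1 called was HLH106, the fly SREBP, at -0.93 (adjusted p = 0.0277 by limma). That call was lost without any one InRCA_noHS library or without control_HS replicate 2 or 3, with adjusted p up to 0.108. In InRCA_HS against InRCA_noHS the 1 called regulator was the histone deacetylase gene HDAC4 at -0.88 (adjusted p = 0.0354 by limma). Of all genes 0.8% were called lower there. In InRCA_HS against control_HS 0 regulators were called by limma or by edgeR on the recovered reads. There 4 of 13 had an unadjusted p under 0.05 by limma, beside 1899 of all 10372 genes. HDAC4 lost its call without InRCA_HS replicate 1 or 2 or any InRCA_noHS library (adjusted p up to 0.150), with TMM scaling (0.065) and with edgeR (0.069).

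Of 12 listed genes of fatty acid synthesis, a pathway that sug is known to promote, 0 were called higher and 5 lower in InRCA_noHS against control_HS (3.25% and 3.78% of all genes), with a median difference of -0.73 beside 0.12 over all genes. ACC, which encodes acetyl-CoA carboxylase, had 1016, 810 and 824 adjusted counts in InRCA_noHS and 5179, 14055 and 5826 in control_HS, and its highest library, control_HS replicate 2, was also the highest for sug. It fell by 3.09 on the log2 scale (SE 0.35, adjusted p = 0.000958 by limma). The fatty acid synthase gene CG3523 fell by 2.05 (adjusted p = 0.0085), v(2)k05816, a second fatty acid synthase gene, by 1.85 (adjusted p = 0.00304), AcCoAS, acetyl-CoA synthase, by 1.78 (adjusted p = 0.0085) and the desaturase gene desat1 by 1.80 (adjusted p = 0.0335). The first 4 of these kept their calls in all 9 fits that left out a library. The call of desat1 was lost without any one InRCA_noHS library or without control_HS replicate 2 or 3, with adjusted p up to 0.125.

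In InRCA_HS against InRCA_noHS, where the sug difference was 1.12 and did not pass, 5 of the 12 genes were called higher and 0 lower. Of all genes 1.75% were called higher and 0.8% lower there. The median of the 12 was 0.52 beside -0.14 over all genes. ACC had 3980, 4939 and 7345 adjusted counts in InRCA_HS, all above its InRCA_noHS values, a difference of 2.58 (adjusted p = 0.00412 by limma). ATPCL, ATP citrate lyase, was higher by 1.45 (adjusted p = 0.00278), CG3523 by 1.76 (adjusted p = 0.0273), AcCoAS by 1.54 (adjusted p = 0.027) and mdy, a diacylglycerol acyltransferase gene, by 1.14 (adjusted p = 0.0467). ACC and ATPCL kept their calls in all 9 fits. CG3523 lost its call without InRCA_HS replicate 2 or 3 or InRCA_noHS replicate 2 or 3 (adjusted p up to 0.119), AcCoAS without any InRCA_HS library or InRCA_noHS replicate 2 or 3 (up to 0.119) and mdy without any library of either group (up to 0.198). In InRCA_HS against control_HS, 1 gene was called higher and 2 lower (1.11% and 1.32% of all genes). ATPCL was higher by 0.85 (adjusted p = 0.0392), while sug was at -0.65; v(2)k05816 fell by 1.56 (adjusted p = 0.0163), as did Men, which encodes malic enzyme, by 1.54 (adjusted p = 0.0245). Men and v(2)k05816 lost their calls without InRCA_HS replicate 1 or 2 or control_HS replicate 2 or 3 (adjusted p up to 0.105), and ATPCL in 7 of the 9 fits, all but those without control_HS replicate 1 or 2 (up to 0.151).

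The pentose phosphate pathway supplies the reducing power for fatty acid synthesis. In InRCA_noHS against control_HS, 4 of its 7 listed genes were called lower and 0 higher (3.78% and 3.25% of all genes), with a median of -0.94 beside 0.12 over all genes. Pgd fell by 1.65 (adjusted p = 0.00523 by limma), Tal, transaldolase, by 1.65 (adjusted p = 0.008), Zw, glucose-6-phosphate dehydrogenase, by 1.72 (adjusted p = 0.0123) and the transketolase gene CG8036 by 0.94 (adjusted p = 0.0296). Between InRCA_HS and InRCA_noHS, which differ in heat and in the receptor it induces, 2 of the 7 were called, both higher (1.75% of all genes). Zw was higher by 1.99 (adjusted p = 0.0104 by limma) and Pgd by 1.64 (adjusted p = 0.00811). Pgd and Tal kept these calls in all 9 fits. Zw lost its call without InRCA_noHS replicate 3 in both comparisons and without InRCA_noHS replicate 2 against control_HS, with adjusted p up to 0.058, and CG8036 lost its call without any InRCA_noHS library or control_HS replicate 2, up to 0.102. In InRCA_HS against control_HS, 1 of the 7 was called, Rpi, ribose-5-phosphate isomerase, where 1.32% of all genes were called lower. Rpi was lower by 0.80 (adjusted p = 0.0488 by limma) and was called in only 1 of the 9 fits.

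**Figure D3:**
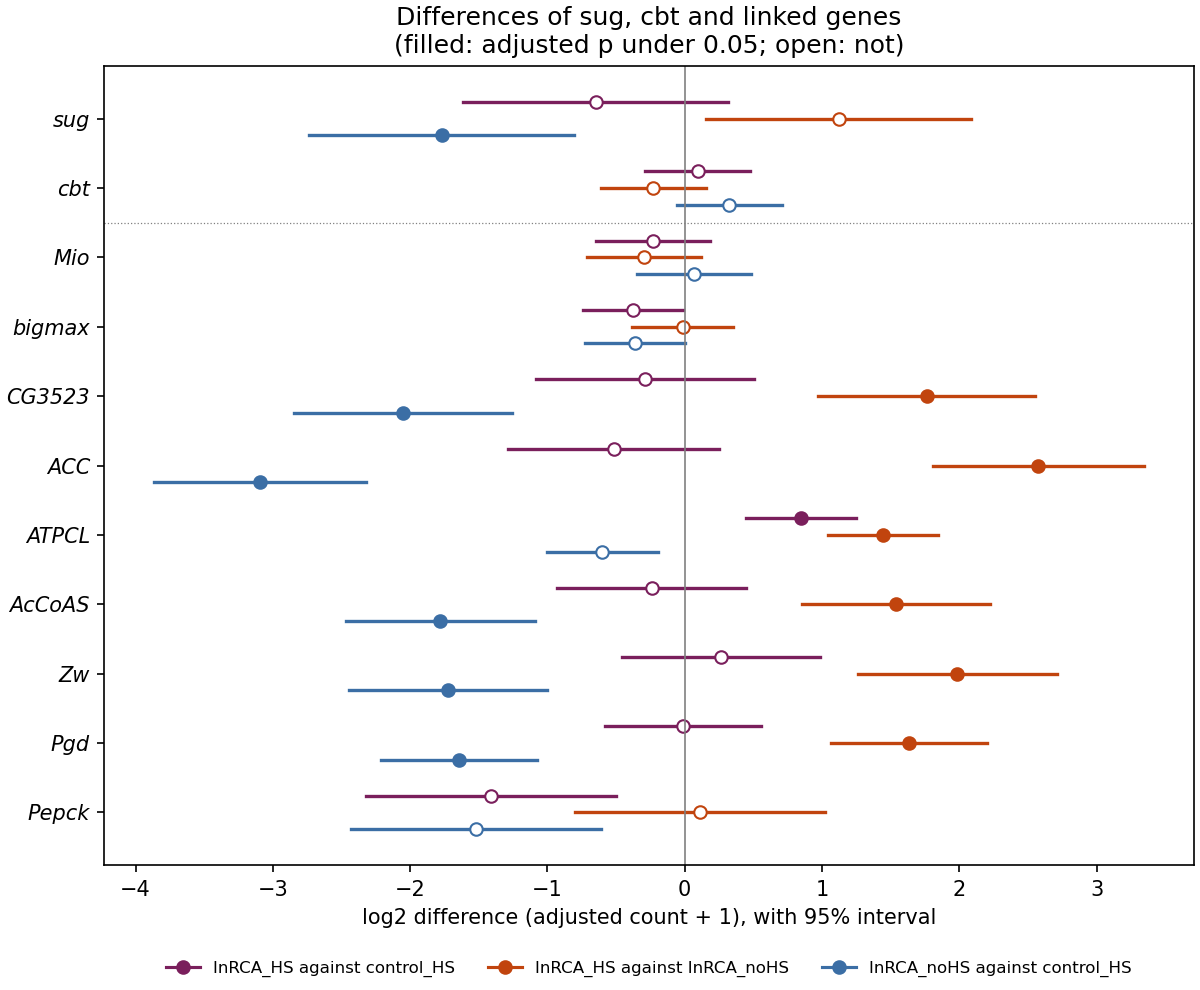
Log2 differences, with 95% intervals from the limma fit, of sug, cbt and 9 genes linked to them in each of the 3 comparisons; filled points have an adjusted p under 0.05. For sug the interval is clear of 0 in InRCA_noHS against control_HS (-2.74 to -0.80) and, without passing the adjusted threshold, in InRCA_HS against InRCA_noHS (0.16 to 2.09), and the cbt intervals all include 0.

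Pepck, the known target of cbt, had 5197, 6595 and 14998 adjusted counts in InRCA_HS, 7418, 9679 and 5712 in InRCA_noHS, and 13143, 30852 and 23698 in control_HS. Its differences were -1.41 in InRCA_HS against control_HS (adjusted p = 0.0969 by limma), 0.11 in InRCA_HS against InRCA_noHS (adjusted p = 0.929) and -1.52 in InRCA_noHS against control_HS (adjusted p = 0.0519, against 0.0380 at -1.69 by edgeR), while cbt differed by 0.09, -0.23 and 0.32. Of the 9 genes of gluconeogenesis and amino acid entry, 2 were called lower in InRCA_HS against control_HS (1.32% of all genes). These were Got2, mitochondrial aspartate aminotransferase, at -1.18 (adjusted p = 0.0242 by limma) and fbp, fructose-1,6-bisphosphatase, at -1.21 (adjusted p = 0.0266). Both were lost without InRCA_HS replicate 1 or 2 or control_HS replicate 2 or 3, and fbp also without InRCA_noHS replicate 3, with adjusted p up to 0.119. In the other comparisons limma called 0 of the 9, with 4 at an unadjusted p under 0.05 in InRCA_HS against InRCA_noHS and 3 in InRCA_noHS against control_HS, where edgeR on the recovered reads called 2.

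Digestive enzymes are mainly products of the gut, and 13 of 18 listed genes were in the table. The amylase gene Amy-p ranged between 44.3 and 275 adjusted counts in InRCA_HS, between 19.8 and 238 in InRCA_noHS and between 52.3 and 105 in control_HS. It differed by -0.67 in InRCA_noHS against control_HS (adjusted p = 0.685 by limma), where sug was called lower. The maltase gene Mal-A1 differed by 1.02 (adjusted p = 0.379), with a value of 1126 in InRCA_noHS replicate 3 beside 152 and 213 in the other two. Mal-A6 was the only one of the 13 called in that comparison, where 3.25% of all genes were called higher. It was higher by 1.83 (adjusted p = 0.00542 by limma), a call kept in all 9 fits. Against control_HS, InRCA_HS had a higher level of Mal-A6 (1.43, adjusted p = 0.0334) and a lower level of the alpha-glucosidase gene tobi (-2.23, adjusted p = 0.031). Tobi had 46.7, 28.3 and 75.4 adjusted counts in InRCA_HS and 112, 383 and 254 in control_HS. Both were lost without InRCA_HS replicate 1 or 2 or control_HS replicate 2 or 3, Mal-A6 also without InRCA_HS replicate 3 or InRCA_noHS replicate 1, and tobi also without InRCA_noHS replicate 2 or 3 (adjusted p up to 0.124). Of these 13, InRCA_HS against InRCA_noHS gave 0 calls by limma or edgeR, with 2 at an unadjusted p under 0.05. The summed level of 9 gut markers was 12213 to 38187 in InRCA_HS, 13282 to 31342 in InRCA_noHS and 16823 to 20480 in control_HS, and its part in the levels of digestive enzymes was not tested.

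Among 12 measured genes of sugar uptake, sugar phosphorylation and the polyol pathway, 1 was called higher and 3 lower in InRCA_noHS against control_HS (3.25% and 3.78% of all genes), with a median of -0.31 beside 0.12 over all genes. The glucose transporter gene Glut1 was higher by 0.90 (adjusted p = 0.0267 by limma), while the sugar transporter genes sut1 and sut2 fell by 1.23 (adjusted p = 0.036) and 1.78 (adjusted p = 0.0248), and Sodh-2, sorbitol dehydrogenase, fell by 1.61 (adjusted p = 0.0247). Sodh-2 also fell by 1.68 in InRCA_HS against control_HS (adjusted p = 0.0391 by limma), the only call of the 12 there (1.32% of all genes were called lower). For InRCA_HS against InRCA_noHS, 0 were called by limma or edgeR, with 7 of 12 at an unadjusted p under 0.05. All 5 of these calls were lost without InRCA_noHS replicate 2 or 3 or control_HS replicate 2, and some also without other libraries, with adjusted p up to 0.139.

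Relatives of sug and cbt gave no further call. Of the 12 measured Kruppel-like, Sp and Gli-related genes, which include both, sug itself was the 1 call, in InRCA_noHS against control_HS. Of all genes 3.78% were called lower there, and the median of the 12 was 0.31 beside 0.12 over all genes. CG42741, the other member with a difference above 1, was at 1.69 in that comparison (adjusted p = 0.0845 by limma). Between InRCA_HS and InRCA_noHS 0 of the 12 were called by limma or edgeR, with 1, sug, at an unadjusted p under 0.05 and a median of -0.19. In InRCA_HS against control_HS 0 were called by either tool, with 0 at an unadjusted p under 0.05 and a median of 0.02. Bteb2, the fly Klf15, stands in this list and in that of the regulators.

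Cabut was first known from the JNK-dependent closure of the embryonic epidermis, and 12 JNK pathway and immediate early genes were therefore set beside it. Only bsk, which encodes JNK itself, was called, at 0.68 in InRCA_noHS against control_HS (adjusted p = 0.0385 by limma). Of all genes 3.25% were called higher there. In InRCA_HS, 4 of the 12 had an unadjusted p under 0.05 against control_HS and 2 against InRCA_noHS, with 0 called by limma or edgeR. The bsk call was lost without any one InRCA_noHS library or without control_HS replicate 2 or 3, with adjusted p up to 0.127, and in 5 of 11 other settings, TMM scaling and edgeR on the recovered reads among them. Of the activin and BMP signalling genes 13 were measured. The daw gene had 776, 815 and 1064 adjusted counts in InRCA_HS, 2011, 1657 and 1880 in InRCA_noHS, and 1433, 1394 and 1898 in control_HS. It fell by 1.07 in InRCA_HS against InRCA_noHS (adjusted p = 0.0108 by limma) and by 0.83 in InRCA_HS against control_HS (adjusted p = 0.0392), and it was the only member called in either. Of all genes 0.8% and 1.32% were called lower in these comparisons, in that order. In InRCA_noHS against control_HS, where sug was called, daw was at 0.24 (adjusted p = 0.444) and 0 of the 13 were called by limma or edgeR, with 1 at an unadjusted p under 0.05. The daw call against InRCA_noHS was lost without InRCA_HS replicate 1 or InRCA_noHS replicate 1 or 3 (adjusted p up to 0.0550), and that against control_HS in 7 of 9 fits (up to 0.163). The 3 comparisons share their libraries pairwise, so the calls of a gene in 2 of them are not independent.

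**Figure D4:**
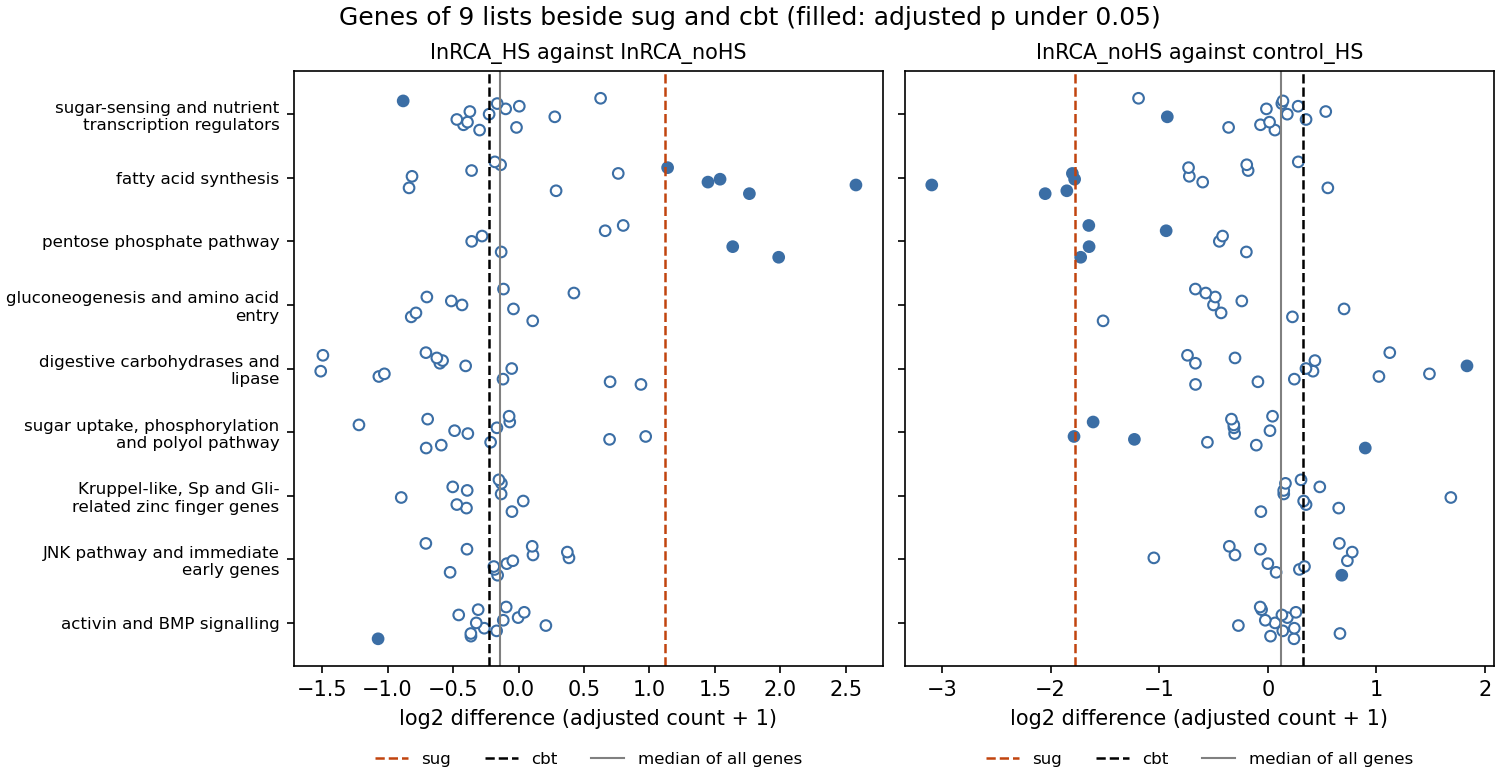
Log2 differences of the genes of 9 lists in InRCA_HS against InRCA_noHS (left) and InRCA_noHS against control_HS (right), 1 point per gene, filled where the adjusted p is under 0.05; dashed lines mark sug and cbt, and the grey line the median of all genes. Called genes of fatty acid synthesis and the pentose phosphate pathway lie on the same side as sug (1.12 left, -1.77 right), and cbt (-0.23 and 0.32) lies near the median.

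The genes whose log2 levels over the 9 libraries were most like those of sug were Gpo-1, Fer2LCH, CG5287, Kr-h2 and CG4332, with Pearson r between 0.97 and 0.98 and Spearman rho between 0.92 and 0.98. Gpo-1 encodes the mitochondrial glycerol-3-phosphate dehydrogenase and Fer2LCH the ferritin light chain. After group means were removed their r with sug was between 0.93 and 0.97, so that the likeness included differences between libraries of a group. The order within groups was not always shared. In InRCA_noHS Gpo-1 had 99.9, 92.5 and 99.6 adjusted counts, beside 64.0, 79.1 and 76.2 for sug. Gpo-1 averaged 252 ± 114 adjusted counts in InRCA_HS, 97.3 ± 4.16 in InRCA_noHS and 588 ± 437 in control_HS (SD, n = 3 each), and its highest library was control_HS replicate 2, as for sug. The genes most like cbt were CG31751, CG31778, Sir2, CG5445 and CG33927, with r between 0.95 and 0.96. Sir2, a protein deacetylase gene, averaged 267 ± 56.3 in InRCA_HS, 312 ± 54.3 in InRCA_noHS and 233 ± 19.9 in control_HS. CG33927 was barely detected, between 1.84 and 8.93 adjusted counts. These genes are the highest of 10372 by correlation over 9 libraries that share their tissue, preparation and scaling, and the coefficients describe these libraries with no test.

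**Figure D5:**
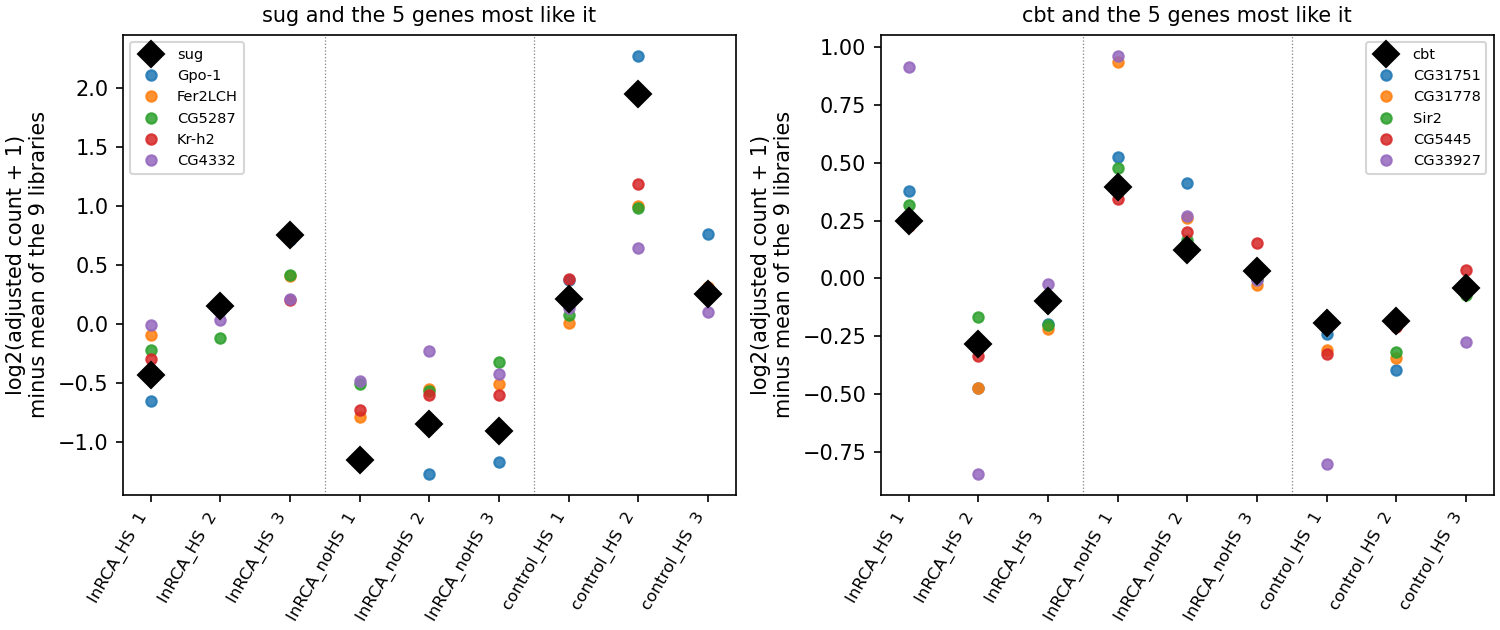
Log2(adjusted count + 1) minus its mean over the 9 libraries, for sug (left) and cbt (right) as black diamonds and the 5 genes most like each as coloured points; the libraries stand along the axis by group. For sug all 5 genes share the low InRCA_noHS values and the high value in control_HS replicate 2, and for cbt the range is smaller.

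Markers of other tissues moved with some of these groups. Where sug was called lower, in InRCA_noHS against control_HS, the summed level of 8 muscle markers was 16429 to 29055 adjusted counts in InRCA_noHS and 31083 to 57162 in control_HS without overlap, with a median difference of -0.88 and 1 of 8 called lower (Mlc2). In InRCA_HS the muscle sum was 24512 to 27206, overlapping InRCA_noHS and also below control_HS. Its median difference from control_HS was -0.55, with 0 of 8 called and 3 at an unadjusted p under 0.05 by limma. The 6 measured hemocyte markers summed to 4861 to 8012 in InRCA_HS, 4693 to 5619 in InRCA_noHS and 5116 to 8219 in control_HS, with overlap, and 1 of 6 (nimC1) was called lower in InRCA_noHS against control_HS. The 6 salivary gland markers summed to 53497 to 171566 in InRCA_HS, 29211 to 93761 in InRCA_noHS and 11639 to 35234 in control_HS. Their median difference from control_HS was 2.08 in InRCA_HS, whose sums did not overlap those of control_HS, and 1.43 in InRCA_noHS, whose sums did. In both InRCA groups against control_HS, 4 of 6 had an unadjusted p under 0.05 by limma and 1 of 6 (Sgs5) was called higher. The 6 neuron markers summed to 3087 to 4559 in InRCA_HS, 5718 to 6752 in InRCA_noHS and 5320 to 7988 in control_HS. The InRCA_HS sums thus lay below those of both other groups, but a single gene, Syt1, made up most of each sum. Syt1 averaged 3061 ± 752 in InRCA_HS, 5339 ± 539 in InRCA_noHS and 6058 ± 1432 in control_HS (SD, n = 3 each). Every other neuron marker overlapped between InRCA_HS and InRCA_noHS, and Appl averaged 240, 237 and 246 in InRCA_HS, InRCA_noHS and control_HS. For 3 Malpighian tubule markers the sums were 708 to 2778, 741 to 1969 and 1550 to 2675 in InRCA_HS, InRCA_noHS and control_HS, and for 5 cuticle markers 4185 to 12534, 3117 to 4856 and 2388 to 3724. Neuron and Malpighian tubule markers gave 0 calls by limma, with at most 1 of a list at an unadjusted p under 0.05 in a comparison. Of the cuticle markers 3 were called higher in InRCA_HS against control_HS, 1 higher in InRCA_HS against InRCA_noHS and 1 lower in InRCA_noHS against control_HS, and the gut marker LysB was called higher in InRCA_noHS against control_HS. No marker measured was at 0 in a library. The part of these tissues in the levels of sug and cbt was not tested, and in whole fat body RNA fewer cells with a transcript cannot be told apart from less transcript per cell.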

How the data were processed

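RNA of larval fat bodies was depleted of ribosomal RNA and sequenced on Illumina instruments, per the labels' protocols. Build dm3 and the tools Bowtie 0.12.7, TopHat 1.3.2 and Cufflinks 1.1.0 appear in the submitters' processing notes. The deposited table holds 1 signal value per gene and library, an adjusted count that the authors scaled between libraries; the tool is not given in the sources used here. When a negative binomial quantile adjustment around each group's own mean was undone, with a dispersion of 0.071 and 1 factor per library, 99.1% of 38615 values up to 100 returned to within 0.1 of a whole read. This within-group adjustment is inferred from the values, and it may bear on the spread within groups. The 9 value columns were assigned by sample title.

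The main test was limma 3.58.1 (R 4.3.3) on log2(adjusted count + 1), with 3 group means over 9 libraries, an intensity trend and Benjamini-Hochberg adjustment over 10372 genes at 0.05. A minimum mean of 1 removed 0 genes. The deposited values being no raw counts, edgeR 4.0.16 on recovered reads was an added alternative, which called 280 genes in InRCA_HS against control_HS, 288 in InRCA_HS against InRCA_noHS and 763 in InRCA_noHS against control_HS. The named genes were sug, cbt, InR, the 4 smallest p of each list with fixed members of the sugar response, and the 5 genes most like each. Other called members were named after their values were seen. The members and lists were chosen with earlier results of these data known. Replicate numbers were not taken as pairs. No sequences are printed.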

Additional observations from a re-analysis of the deposited data

How the results depend on the processing

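The sug call in InRCA_noHS against control_HS kept its side of the threshold in 10 of 11 other settings. Of these 11, 1, no filter on low values, repeats the main fit, because the main filter removed 0 genes. With no intensity trend the difference of -1.77 had an adjusted p of 0.0713 by limma. Leaving out a library gave -2.07 to -1.20, and 5 of 9 such fits kept the call. For cbt no setting and no left-out library gave a call, and in InRCA_HS against control_HS its difference ranged between -0.052 and 0.21 without a library. In InRCA_noHS against control_HS, Mio was at -0.056 with TMM scaling, at -0.041 with edgeR and between -0.084 and 0.22 without a library, and Amy-p was at 0.025 with edgeR and between -1.75 and 0.0064 without a library; the cause was not tested. Of 35 calls of listed genes other than sug, 15 were kept with no intensity trend, 23 with the replicate block, 25 in fits of only the libraries compared, and 32 to 35 under the other settings. The 35 kept with no filter on low values again come from the main fit itself.

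The number of genes called in InRCA_HS against control_HS (252) was 90 with no intensity trend, 900 with array weights, 56 in a fit of only the 6 libraries compared and 56 to 961 without a library. In InRCA_HS against InRCA_noHS (265) it was 145 with no trend and 106 to 336 without a library. In InRCA_noHS against control_HS (729) it was 446 with no trend, 1446 with array weights and 267 to 1421 without a library.

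The replicate numbers did not pair the libraries: same-numbered libraries of different groups correlated between -0.25 and 0.12 after group means were removed, and 4 of 18 best matches carried the same number. With the replicate number as a block, sug in InRCA_noHS against control_HS was at -1.77 (adjusted p = 0.0385 by limma), and the counts called were 186, 186 and 551.

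The precision of sug is limited by 3 libraries a group and by the spread in control_HS (SD of log2 values 0.99) and InRCA_HS (0.59). The InRCA_noHS libraries had only 40 to 91 reads of sug, with an SD of 0.16.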
